A study of Homo sapiens with 4 samples.

Results

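RNA levels were read from 4 microarrays that cover whole transcripts, in DAOY, an established human cell line derived from a medulloblastoma, a tumour of the cerebellum. Each array held RNA from cells that carried a different short hairpin RNA, and the array of the hairpin named H2 is described here against the 3 others. Its members are the genes whose H2 intensity lay at least 1.5-fold below the lowest, or at least 1.5-fold above the highest, of the H3, H4 and scrambled arrays. Of the 18417 genes with a probe set of a single symbol, 281 met this rule (1.53%), 251 of them lower on H2 (1.36%) and 30 higher (0.163%). A total of 13813 genes had a mean log2 intensity at or above the 25th percentile of 6.78, an intensity of 110.2. Among these, 274 genes lay outside all 3 others (1.98%), with 250 lower on H2 (1.81%) and 24 higher (0.174%). The 7 members under that filter were ST8SIA6 on the lower side and LCE2C, SLITRK6, BMP5, SULT1B1, ESM1 and RERG on the higher side, and they enter no count below unless named. Because these 4 intensities chose the members, the values are given as a description and carry no test of their own.

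The hairpins H2, H3 and H4 are directed against ZFX, an X-linked gene for a DNA-binding protein with zinc fingers, and the scrambled hairpin has no target. The labels call the genotype of the first 3 a ZFX knockdown. All 4 cultures, the control included, took up lentivirus over 16 to 24 hours, recovered for 48 hours and were then kept for about 48 hours in puromycin at 2 ug/mL, which kills cells without the vector. From each, 250 ng of total RNA was labelled with biotin. No untransduced or unselected culture was analysed here. There was 1 array per hairpin and the labels do not say that a transduction was repeated, so a difference due to the hairpin cannot be told apart from one due to the H2 culture, its RNA or its array.

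A short hairpin RNA is transcribed from the integrated virus and cut into a small RNA that guides the silencing machinery to a matching transcript. Among the genes described, many belong to the interferon response, in which a receptor at the cell surface signals through STAT proteins and IRF9 to a short promoter element, the interferon-stimulated response element (ISRE), and switches on antiviral genes. Others encode the extracellular matrix, the collagens, microfibrils and proteoglycans around mesenchymal cells, and the integrins and actin regulators through which a cell holds on to it.

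ZFX itself was not outside the others on H2. Its probe set (8166500) read 744.9 on the H2 array and 749.6, 995.6 and 1429.5 on the H3, H4 and scrambled arrays. H2 and H3 were at nearly the same low level, H4 lay above them and the scrambled array was highest, and by the rule every gene described next as a member differed at least 1.5-fold between H2 and H3, arrays with nearly the same ZFX reading.

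H2 was the array that stood furthest from each of the others. A count of 912 of 13813 genes differed at least 1.5-fold between H2 and the scrambled array (6.6%), 820 between H2 and H4 (5.94%) and 612 between H2 and H3 (4.43%). Between H3 and H4 it was 415 (3%), between H4 and scrambled 384 (2.78%) and between H3 and scrambled 230 (1.67%). In each pair with H2, more genes were higher on the other array than on H2, at 775 against 137 for scrambled, 562 against 258 for H4 and 513 against 99 for H3. By any amount, H2 was below all 3 others in 4494 genes (32.5%) and above all 3 in 3989 (28.9%), and the median difference of H2 from the mean of the others over all genes was -0.0047 on the log2 scale. The imbalance was wider among the large differences, since 91.2% of the 274 members were lower on H2.

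**Figure D1:**
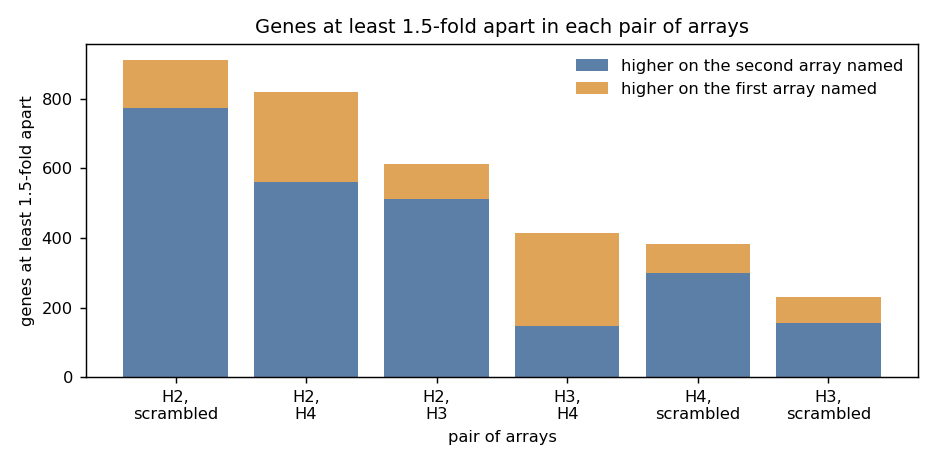
Number of genes (of 13813) at least 1.5-fold apart in each of the 6 pairs of arrays, with the 2 directions stacked, 1 array per hairpin and no error bars. The 3 pairs that contain H2 hold 612 to 912 genes and the 3 pairs without it 230 to 415, and in each H2 pair the larger portion was higher on the other array.

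The 250 lower members had a median gap of -0.75 on the log2 scale, where the gap is the difference of H2 from the nearest of the 3 others, and H2 stood at a median of 59.6% of that nearest array. In 49 of them the gap was at least 2-fold and in 4 it was at least 3-fold (GBP2, ITGB3, TMOD1 and LYPD6B). In 228 of the 250 the gap was larger than the whole range of the 3 other arrays. The rule asks for a gap of at least 0.585 on the log2 scale, so this count is largely set by the rule. That range had a median of 0.28 in the lower members, wider than the 0.19 over all genes. The nearest array was H3 in 125 genes, H4 in 96 and scrambled in 29. H3 and H4 were both below the scrambled array in 127 of the 250 (50.8%), against 40.1% over all genes tested, and in only 5 were both at least 1.5-fold below it. The median difference from the scrambled array on the log2 scale was -1.004 for H2, -0.098 for H3 and -0.085 for H4, beside -0.030, -0.021 and -0.046 over all genes; these differences share the scrambled array. The 24 higher members had a median gap of 0.76 on the log2 scale, 5 of them at least 2-fold. In 22 of the 24 the gap exceeded the range of the others, a count likewise largely set by the rule. The median of that range was 0.46 in these genes.

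At the edge of the rule, LOXL3 (1.501-fold) and MT1F (1.501-fold) lay just inside on the lower side and PIEZO2 (1.4995-fold) and SMOX (1.499-fold) just outside. On the higher side PRDM1 (1.51-fold) and ACTL8 (1.53-fold) were inside, and ZNF606-AS1 (1.495-fold) and TYRP1 (1.489-fold) were outside. ACTL8, an actin-like gene, read 162.4 against 106.2, 90.7 and 96.7 on H2 against H3, H4 and scrambled, so the 3 others were all under the intensity filter and it passed only through H2.

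**Figure D2:**
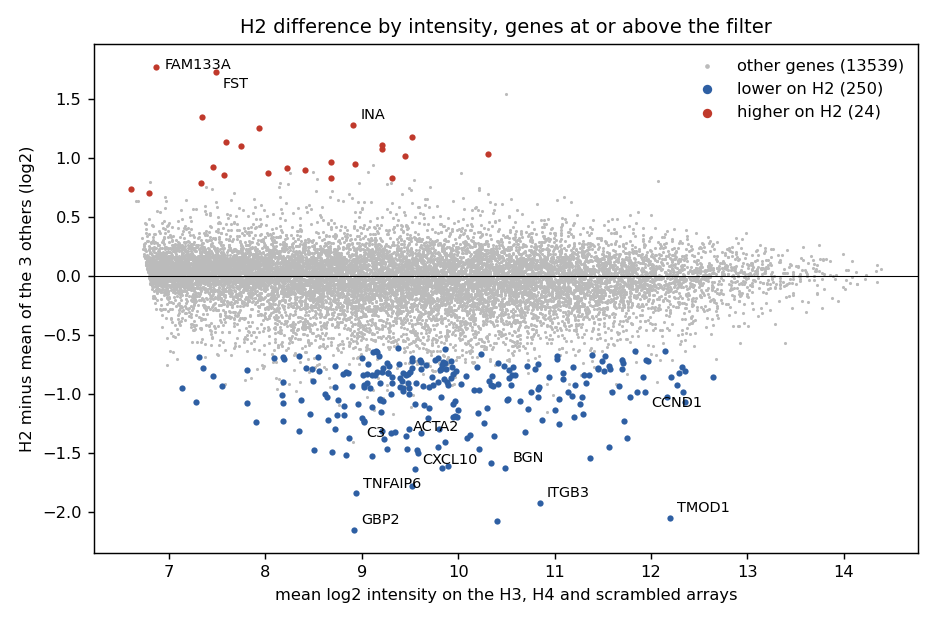
Difference of H2 from the mean of the 3 other arrays (log2, vertical axis) against the mean log2 intensity of those 3 arrays (horizontal axis), 1 point per gene. Blue points are the 250 genes lower on H2, red points the 24 higher and grey points the remaining 13539; the coloured genes were chosen by these values, and the blue points far outnumber the red.

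A fit across all 13813 genes was made with limma, H2 against the mean of the 3 others. It passed 27 genes at an adjusted p of 0.0464 (limma, Benjamini-Hochberg), 0.195% of those tested, 26 lower (0.188%) and 1 higher (0.00724%). All 27 are members, but the rule and the fit use the same values, so nothing further is read from this. The fit has 2 residual degrees of freedom, and its spread is that of 3 different hairpins rather than of repeats. The count was 12 without H4 and 0 without H3 (1849 genes at an unadjusted p under 0.05) or without the scrambled array (1392 such genes). It was also 0 on all 4 arrays when eBayes had no intensity trend (1831 such genes; smallest adjusted p 0.0526 in limma).

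The summed intensities of markers of cell types gave the following, and each sum includes the markers under the filter. Of 17 measured markers of the SHH-type medulloblastoma and cerebellar granule lineage, 15 were at or above the filter and GLI1 and NES were under it. None was a member. Their sum ran from 20654 to 20941 over the 4 arrays and was 20821 on H2, of which VIM, vimentin, alone gave 13937. The genes of the lineage itself lay on both sides. In the order H2 against H3, H4 and scrambled, the Hedgehog genes GLI2 and PTCH1 read 289.0 against 486.9, 342.9 and 357.0 and 1132 against 1536, 1506 and 1405. The transcription factor PAX6 read 201.6 against 240.2, 286.7 and 301.4. ZIC1, MEIS1 and MYCN were also lowest on H2, by smaller gaps. EOMES and ATOH1 were highest on H2, at 197.5 against 161.2, 166.1 and 159.5 and 126.2 against 107.8, 111.5 and 107.1. ZIC2, BARHL1, SFRP1, OTX2, SOX2 and HHIP had H2 among the others. For fibroblasts and mesenchyme, 8 of 9 markers were above the filter with DCN under it, the sum was 8671 on H2 and 12675 to 13160 on the others, and COL1A1, COL1A2 and PDGFRB were lower members. The rule chose these genes, and COL1A1 and COL1A2 make up most of the sum. LUM and PDGFRA were highest on H2, and COL3A1, THY1 and FAP had H2 among the others. For endothelium, 3 of 7 markers passed, the sum was 1129 on H2 against 1600 to 2258, and PECAM1, CDH5, VWF and KDR were all under the filter. Those that passed were TEK and TIE1, lower members chosen by the rule, and ERG, at 167.1 against 171.5, 269.1 and 201.5. For leukocytes, 5 of 8 passed, the sum was 3017 on H2 against 4081 to 5117, and PTPRC, CD3E and ITGAM were under the filter. LAPTM5 in this sum was a lower member chosen by the rule, and CD68 alone gave 1853 of the sum on H2. CD68, LCP1 and CSF1R were lowest on H2 without meeting the rule, and CD14 was highest there. Epithelial markers summed to 9345 on H2 and to 8845 to 11431 on the others, with EPCAM, CDH1 and KRT5 under the filter. Neuronal markers summed to 1339 on H2 and 1253 to 1312 on the others, with MAP2, GAP43, DCX and STMN2 under the filter. Among the neuronal markers that passed, RBFOX3 and SYP were highest on H2, and SNAP25 and SYT1 had H2 among the others. The arrays held RNA of the cell line DAOY, so a marker names the cell type it is known from, not cells shown to be there. In RNA from a whole culture, fewer cells that express a gene and less of its RNA per cell cannot be told apart.

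Members were grouped by function after their values had been seen, and 223 of the 274 could be placed in 12 groups. Intensities are given below in the order H2 against H3, H4 and scrambled, and every lower member has H2 below and every higher member H2 above all 3 others by construction. The largest group was the extracellular matrix and its remodelling with 27 members, 26 lower. It was followed by cytokine, complement and leukocyte signalling with 26, all lower, metabolism and redox with 24 (21 lower), and growth factors, receptors and morphogens with 20 (18 lower). Interferon and antiviral genes came to 17 and small GTPases with their regulators to 19, all of them lower. Of all 274 members 91.2% were lower, so a group that is mostly lower is near that share. The genes tested were not counted by function. The group with the most even split was that of neuronal and secretory vesicle genes, with 6 lower and 5 higher.

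**Figure D3:**
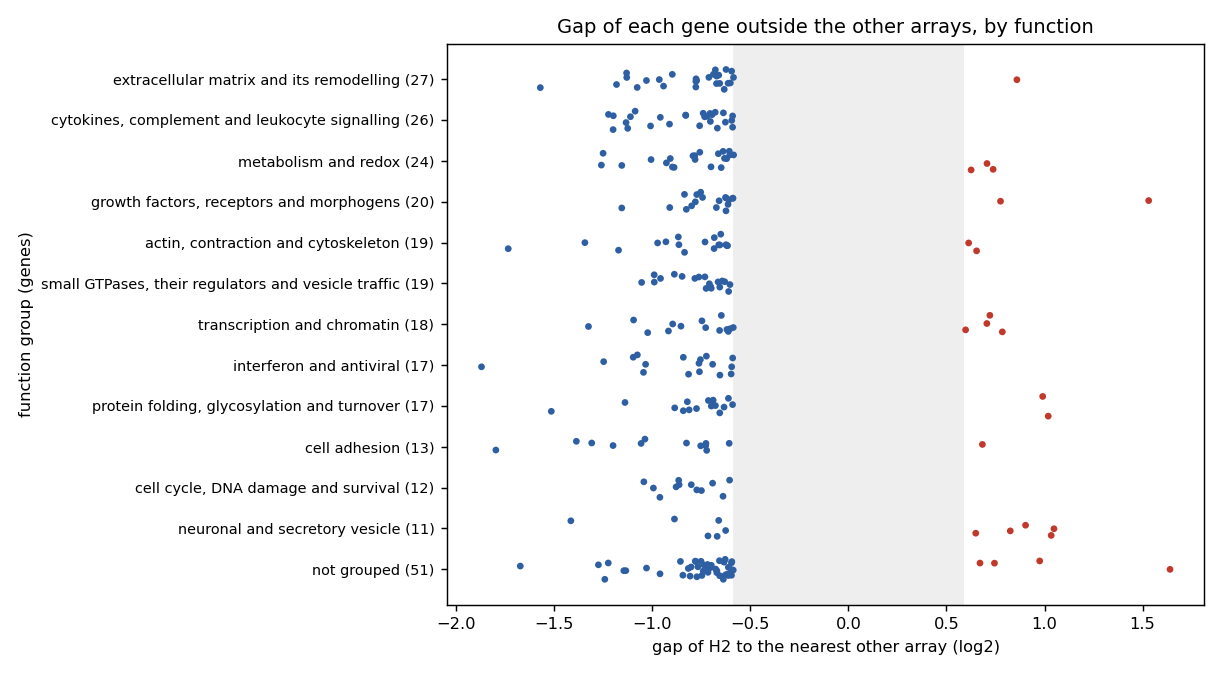
Gap of H2 to the nearest of the 3 other arrays (log2, horizontal axis) for each of the 274 members, by function group (vertical axis, number of genes in brackets); the grey band holds gaps under 1.5-fold and so no member. Points to the left are lower on H2 and points to the right higher, and the vertical scatter within a group has no meaning.

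The gene furthest below the others was GBP2, an interferon-inducible GTPase of the guanylate-binding family. Its probe set (7917530) read 109.3 on the H2 array and 487.8, 399.9 and 584.5 on the H3, H4 and scrambled arrays. The 3 others spanned 0.55 on the log2 scale and H2 was 3.66-fold below the nearest of them, with its H2 reading itself just under the intensity filter, as in 9 of the lower members. A second GBP2 probe set that the rule did not use read 124.3 on H2 and 268.4, 237.7 and 368.1 on H3, H4 and scrambled, a gap of -0.94 on the log2 scale. GBP4, its neighbour in gene order and a member of the same family, read 465.8 against 785.9, 882.6 and 1398. Here the scrambled array stood well above H3 and H4.

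Several antiviral effectors and sensors were lower. IFIT1, which binds viral RNA that lacks the host's cap methylation, read 310.8 against 665.0, 809.0 and 890.0. IFIT2 and IFIT3, its partners in the same gene cluster, read 237.9 against 501.7, 531.8 and 770.7 and 260.1 against 412.7, 409.7 and 560.7 in that order. The 3 genes had the same order of arrays at their ends, with H2 lowest and scrambled highest. MX2, a dynamin-like GTPase that blocks retroviral entry into the nucleus, read 180.7 against 440.5, 370.0 and 627.7. OASL, a relative of the enzymes that make the messenger oligoadenylate, read 472.8 against 801.8, 814.9 and 1055, and APOBEC3G, a cytidine deaminase that mutates retroviral DNA, 261.6 against 464.2, 460.3 and 466.5. For APOBEC3G the 3 others differed by only 0.019 on the log2 scale. AIM2, a sensor of cytosolic DNA, read 210.1 against 376.6, 406.8 and 601.0. IRF9, the DNA-binding subunit of the complex that reads the ISRE, stood at 400.4 against 689.1, 602.7 and 722.8, or 66.4% of its nearest array. XAF1, which opposes inhibitors of apoptosis, read 848.1 against 1345, 1284 and 1855, and CH25H, which makes 25-hydroxycholesterol, 191.5 against 309.5, 1098 and 490.0. CH25H was one of the least even of these genes, since H4 stood far above all the others.

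Some interferon-linked genes of immune recognition were lower members as well. TNFSF10 encodes TRAIL, a ligand that triggers apoptosis, and read 1109 against 2635, 2872 and 3677. CD274 encodes PD-L1, an inhibitory ligand for T cells, and read 274.4 against 903.8, 566.2 and 868.5. ERAP1, which trims peptides for MHC class I, read 811.4 against 1435, 1340.5 and 1672, and the butyrophilins BTN3A1 and BTN3A2 read 347.1 against 607.6, 587.6 and 593.3 and 319.3 against 616.8, 482.4 and 511.6. In each of these 5 genes H3 or scrambled was highest, and the 3 others were closest together for BTN3A1, within 0.048 on the log2 scale.

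On a list of interferon-stimulated genes, 53 were above the filter and 9 were lower members (17.0%) against 1.81% of all genes, with 0 higher. H2 was below all 3 others in 41 of the 53 and above all 3 in 4, beside 32.5% and 28.9% of all genes. The median difference was -0.39 from H3, -0.35 from H4 and -0.67 from scrambled. Not every gene of the list went this way. ISG15, a ubiquitin-like modifier, read 219.6 against 222.4, 245.8 and 210.1, which put H2 among the others, and IFI44L, an interferon-induced gene, read 1965 against 1365, 996.7 and 1232 with H2 highest. MX1, a relative of MX2 that blocks influenza and other viruses, read 322.2 against 496.8, 441.4 and 599.7 and missed the threshold with a gap of -0.45. All 4 arrays carried lentiviral vectors, and H3 and H4 also stood below scrambled for this list, by medians of -0.26 and -0.30.

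Promoter sequences of 3 interferon-inducible members are shown because each holds a match to the letters GAAANNGAAA, which make up the core of an ISRE. They are the 250 bases before the transcription start in RefSeq (GRCh38.p14), read 5′ to 3′ on the gene's strand, with matches on either strand in capitals. IFIT1 lies at chr10:89392373-89392622 on the plus strand and IFIT3 at chr10:89327747-89327996 on the plus strand. CXCL10, a chemokine described below, lies at chr4:76023498-76023747 on the minus strand.
IFIT1: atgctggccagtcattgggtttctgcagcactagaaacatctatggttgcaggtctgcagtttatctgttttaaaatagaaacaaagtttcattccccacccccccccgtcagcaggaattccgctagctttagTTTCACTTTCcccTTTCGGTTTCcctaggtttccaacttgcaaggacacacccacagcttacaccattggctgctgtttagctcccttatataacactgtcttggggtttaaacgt
IFIT3: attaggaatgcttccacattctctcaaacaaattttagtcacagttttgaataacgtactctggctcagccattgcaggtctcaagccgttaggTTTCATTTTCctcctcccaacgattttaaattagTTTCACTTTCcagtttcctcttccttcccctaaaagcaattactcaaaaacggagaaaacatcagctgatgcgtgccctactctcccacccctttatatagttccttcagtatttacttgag
CXCL10: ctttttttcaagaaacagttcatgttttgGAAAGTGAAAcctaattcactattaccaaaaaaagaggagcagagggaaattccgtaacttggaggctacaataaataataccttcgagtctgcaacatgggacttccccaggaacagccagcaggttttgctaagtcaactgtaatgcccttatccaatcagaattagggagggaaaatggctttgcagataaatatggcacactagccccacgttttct
IFIT1 and IFIT3 have 2 matches each, beginning 116 and 103 bases before the start in IFIT1 and 156 and 122 bases before it in IFIT3. CXCL10 has 1 match, beginning 221 bases before the start. Searched from 250 bases before to 50 after the start on both strands, 12 of 208 lower members with a promoter sequence had a match (5.77%), 1 of 21 higher members (4.76%) and 291 of 10919 genes above the filter (2.67%). Among the interferon list it was 3 of the 5 lower members with a sequence (60%) and 25 of the other 38 genes (65.8%). The lower members with a match outside that list were ACTA2, AIM2, CD274, CXCL10, ERAP1, PDGFRB, TENM2, TNFSF10 and VCAM1. A match is only a run of letters and was not tied to binding of any factor.

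Among secreted cytokines and chemokines, several were lower members. IL6, a cytokine of inflammation, read 709.9 against 1903, 1069 and 1548. LIF, a cytokine of the same family, read 376.3 against 884.7, 772.9 and 757.3, and its 3 other arrays lay within 0.22 on the log2 scale. CXCL10, which draws activated T cells, read 240.6 against 952.6, 407.2 and 1083 and its neighbour CXCL11, which binds the same receptor, 98.4 against 206.2, 148.1 and 216.8. Both had H3 and scrambled high and H4 between them and H2. CXCL12, the ligand of CXCR4, read 222.5 against 371.8, 648.6 and 958.8, with H3 next to H2 and scrambled highest. CCL5, another T cell chemokine, read 936.2 against 1543, 1687 and 2314. The other arrays also differed widely among themselves here, and the gap of CXCL10 (-0.76) was smaller than their range of 1.41.

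Receptors and signalling proteins of inflammation followed. IL1RAP, the shared co-receptor for interleukin 1, read 221.0 against 574.4, 484.8 and 502.6, and IRAK2, a kinase below that receptor, 315.5 against 810.7, 490.8 and 627.4. BDKRB1, an inducible bradykinin receptor, read 313.0 against 1342, 556.2 and 1165. PTGER2, a receptor for prostaglandin E2, read 172.4 against 396.1, 412.9 and 398.6, and TNFAIP8, which is induced by tumour necrosis factor, 221.8 against 509.2, 511.1 and 542.6. For PTGER2 and TNFAIP8 the 3 others were almost level, within 0.060 and 0.092 on the log2 scale, and H2 stood at 43.5% and 43.6% of the nearest. TNFAIP6, a hyaluronan-binding protein secreted in inflammation, read 136.6 against 298.1, 503.7 and 781.2, with a wide spread among the others. VCAM1, which holds leukocytes to the vessel wall, read 146.7 against 626.5, 237.6 and 470.4.

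The complement genes C3, the central component of the cascade, and C1S, a protease that starts the classical pathway, read 260.7 against 554.8, 402.7 and 1236 and 256.0 against 801.2, 497.7 and 889.4 in that order. For C3 the scrambled array was far above H3 and H4. Some genes best known from leukocytes were lower members. LAPTM5, a lysosomal membrane protein of blood cells, read 271.0 against 633.0, 860.8 and 819.7. PAG1, an adaptor that anchors the kinase CSK at the membrane, read 156.8 against 354.1, 338.7 and 367.2, and FYN, a kinase of the SRC family, 1033 against 1717, 1819 and 1808. AOAH, an enzyme that detoxifies bacterial lipopolysaccharide, read 252.2 against 535.9, 632.5 and 751.3. LAT, an adaptor of the T cell receptor, read 393.3 against 775.1, 641.5 and 698.3, and PARVG, a parvin of blood cells that links integrins to actin, 293.7 against 552.8, 776.2 and 867.1. They were picked after their values were seen. On a list of leukocyte-associated genes, 1 of 23 was a lower member (4.35%), LAPTM5, and 0 were higher, beside 1.81% and 0.174% over all genes. By any amount, H2 was below all 3 others in 10 of them and above all 3 in 4, beside 32.5% and 28.9% of all genes. The median of the list was -0.045. The leukocyte markers PTPRC and CD3E were under the filter on these arrays, and the summed leukocyte markers stood at 3017 on H2 against 4081 to 5117; their part in these values was not tested.

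Of 34 genes on a list of cytokines, chemokines and receptors, 8 were lower members (23.5%) and 0 higher, beside 1.81% and 0.174% over all genes. The median difference was -0.50 from H3, -0.27 from H4 and -0.56 from scrambled. From the mean of the others it was -0.46, and -0.19 with no intensity filter. CSF1, the growth factor of macrophages, read 507.4 against 922.0, 745.9 and 1024 and missed the threshold. The list of NF-kB and inflammatory signalling had 3 lower members of 23 (13.0%), but its median difference was -0.46 from H3 and -0.33 from scrambled and 0.071 from H4. By this median H4 was no higher than H2 over that list. Complement and coagulation had 2 lower members of 24 (8.33%) and antigen presentation 2 of 16 (12.5%), where 1.81% of all genes were lower.

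**Figure D4:**
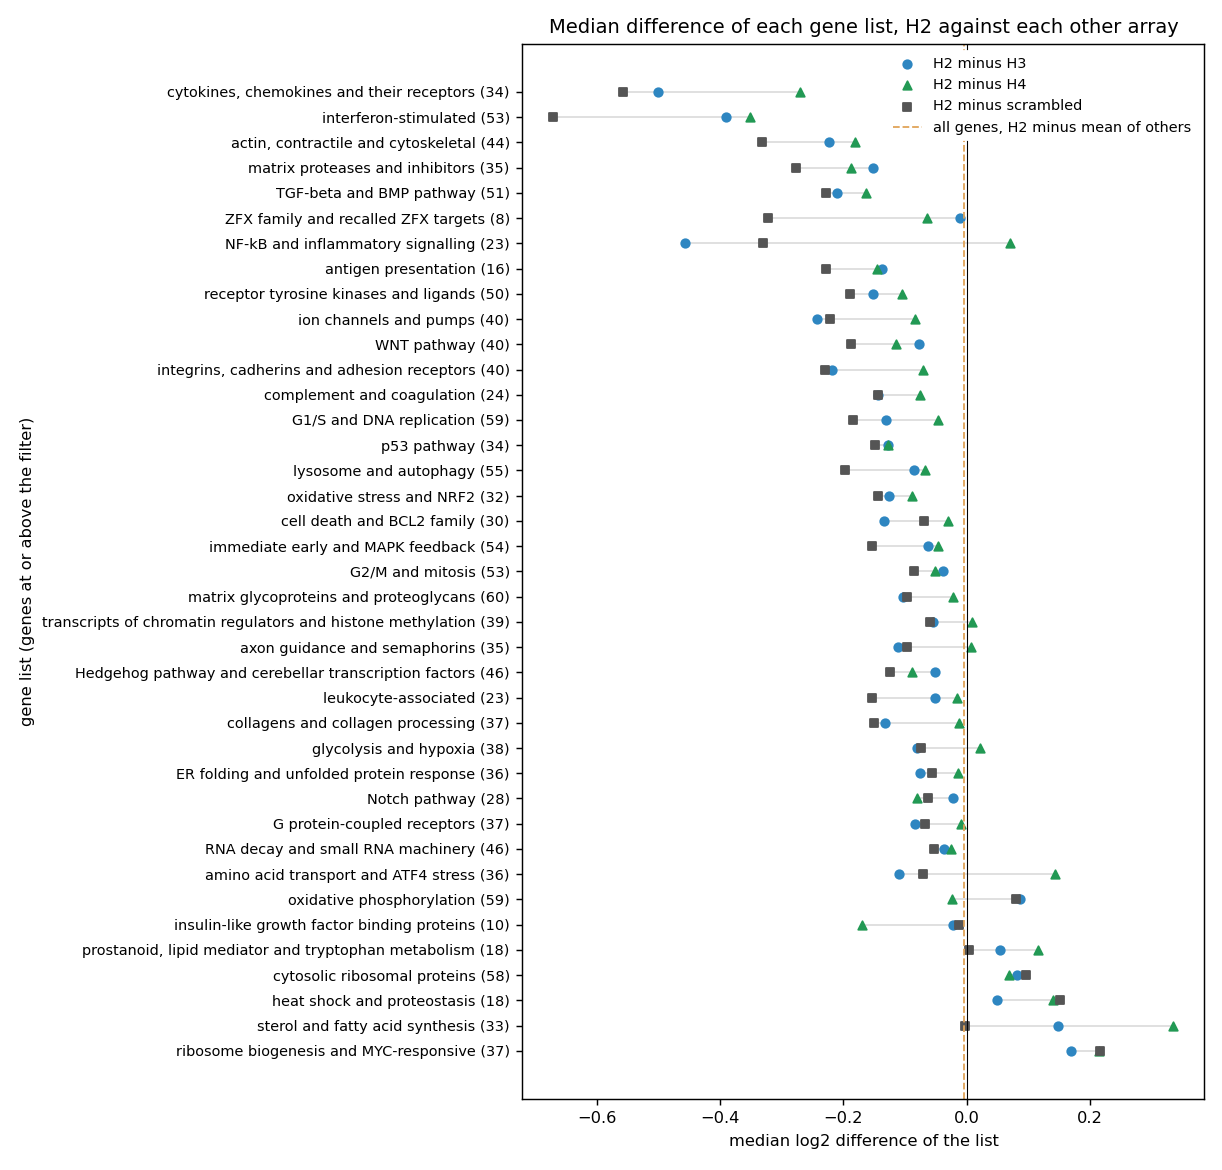
Median log2 difference of H2 from each other array (horizontal axis) for each of the 39 gene lists (vertical axis, genes at or above the filter in brackets), sorted by the difference from the mean of the 3 others; the dashed line is the median over all genes. The cytokine and interferon lists lie furthest to the left, and the ribosome biogenesis list lies to the right against all 3 arrays.

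A minority of the genes for structural proteins of the matrix were lower members. BGN encodes biglycan, a small proteoglycan that binds collagen and TGF-beta, and read 465.4 on the H2 array and 1383, 1436 and 1491 on the H3, H4 and scrambled arrays. The 3 others differed by 0.11 on the log2 scale and H2 stood at 33.7% of the nearest. FBN1, the fibrillin of microfibrils, read 1115 against 2591, 2353 and 2578. COL1A1 and COL1A2, the chains of type I collagen, read 2621 against 4483, 5026 and 4697 and 2343 against 3704, 3661 and 3585. Both collagen genes had 3 nearly level arrays and a lower H2, at 58.5% and 65.4% of the nearest. NID1, a linker of basement membranes, read 518.3 against 925.3, 848.7 and 922.0. FBLN1, a fibulin, and EFEMP2, which is needed for elastic fibres, read 250.2 against 410.5, 388.1 and 475.7 and 216.0 against 340.5, 373.4 and 422.3 in that order. ECM1, a secreted glycoprotein, read 315.6 against 580.1, 486.4 and 637.4. Members of the proteoglycan family included GPC4, a glypican at the cell surface, with 131.4 against 287.8, 302.3 and 396.9, and CSPG4, a chondroitin sulphate proteoglycan also called NG2, with 137.4 against 291.5, 235.5 and 356.1.

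Genes that build, crosslink or cut the matrix were among the members. TGM2, a transglutaminase that crosslinks proteins, read 526.9 against 1076, 1134 and 1348, and BMP1, the protease that trims procollagen, 401.2 against 639.2, 769.1 and 741.9. In a second BMP1 probe set, which lay under the filter, H2 was among the others. MMP14, a membrane-bound collagenase, read 1089 against 1867, 1890.0 and 2152 and ADAM19, a membrane-bound metalloprotease, 937.0 against 2183, 1828 and 2177. The inhibitors TIMP2 and TIMP3 were lower too, at 2144 against 3418, 4313 and 3962 and 878.3 against 1875, 1389 and 1994. TIMP2 and TIMP3 therefore lay on the same side as MMP14 and ADAM19, all of them members chosen by the rule. MRC2, a receptor that takes up collagen, read 436.1 against 671.3, 663.8 and 659.0. PAPSS2 and CHST15, which make the sulphate donor and add sulphate to chondroitin, read 727.3 against 1552, 1164 and 1234 and 359.3 against 799.1, 616.1 and 756.6. PXYLP1, which removes a phosphate from the xylose of proteoglycan linkers, read 124.4 against 304.5, 282.4 and 285.9. ADAMTS1, a secreted protease that cuts proteoglycans, was the exception in this group with 1275 against 702.9, 524.7 and 560.8, highest on H2.

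Among 60 matrix glycoproteins and proteoglycans, 8 were lower members (13.3%) and 0 higher, beside 1.81% and 0.174% over all genes. Of 37 collagens and collagen-processing genes, 4 were lower (10.8%). The medians of these lists were -0.068 and -0.040 from the mean of the others, close to the -0.0047 of all genes, so the lower members were a minority of each list. FN1, fibronectin, read 15350.2 against 15976, 16801 and 16281 and COL3A1, type III collagen, read 481.2 against 371.5, 666.9 and 364.0, and neither met the rule, with H2 only just lowest for FN1 and among the others for COL3A1. The list of proteases and inhibitors had 4 lower (11.4%) and 1 higher (2.86%) of 35 and a median of -0.24. By any amount, H2 was below all 3 others in 21 of them and above in 8, beside 32.5% and 28.9% of all genes. With the filter at the 50th percentile of intensity the collagen median was -0.31, and with no filter that of the proteases and inhibitors was -0.12. The latter was -0.14 without H3 and -0.15 without scrambled. The summed mesenchymal markers, 8671 on H2 and 12675 to 13160 on the others, include COL1A1, COL1A2 and PDGFRB, and their part in the matrix values was not tested. The markers LUM and PDGFRA had H2 highest, at 242.7 against 114.4, 211.6 and 186.5 for LUM and 230.6 against 168.5, 185.6 and 161.5 for PDGFRA.

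Adhesion receptors were led by ITGB3, the integrin beta 3 subunit that binds vitronectin and fibronectin. Its probe set (8007931) read 486.3 on the H2 array and 1691, 1858 and 1981 on the H3, H4 and scrambled arrays. The 3 others were within 0.23 on the log2 scale and H2 was 3.48-fold below the nearest. ITGA11, the alpha subunit of a collagen receptor, read 351.4 against 870.6, 962.8 and 959.2, and ITGA5, the alpha subunit of the fibronectin receptor, 1572 against 3484, 2594 and 3313. The subunits ITGB1 and ITGAV, which pair with these, read 4530.0 against 4762, 4541 and 4864 and 4038 against 5360.2, 5887 and 5665, and neither met the rule. MCAM, an adhesion molecule of melanoma and vessel wall cells, read 295.5 against 772.9, 1058 and 926.0. HEG1, a receptor of endothelial junctions, read 1331 against 3058, 3349 and 3965, and JAM3, a junctional adhesion molecule, 1255 against 2802, 2079 and 2297. The tetraspanins CD82 and CD9, which organise integrins in the membrane, read 1165 against 2391, 2451 and 2556 and 959.0 against 1976, 1848 and 1699.7. The list of integrins, cadherins and adhesion receptors held 6 lower members of 40 (15%) and 0 higher, beside 1.81% and 0.174% over all genes. Its median was -0.22 from H3, -0.070 from H4 and -0.23 from scrambled. From the mean of the others it was -0.13, and -0.45 with the filter at the 50th percentile.

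**Figure D5:**
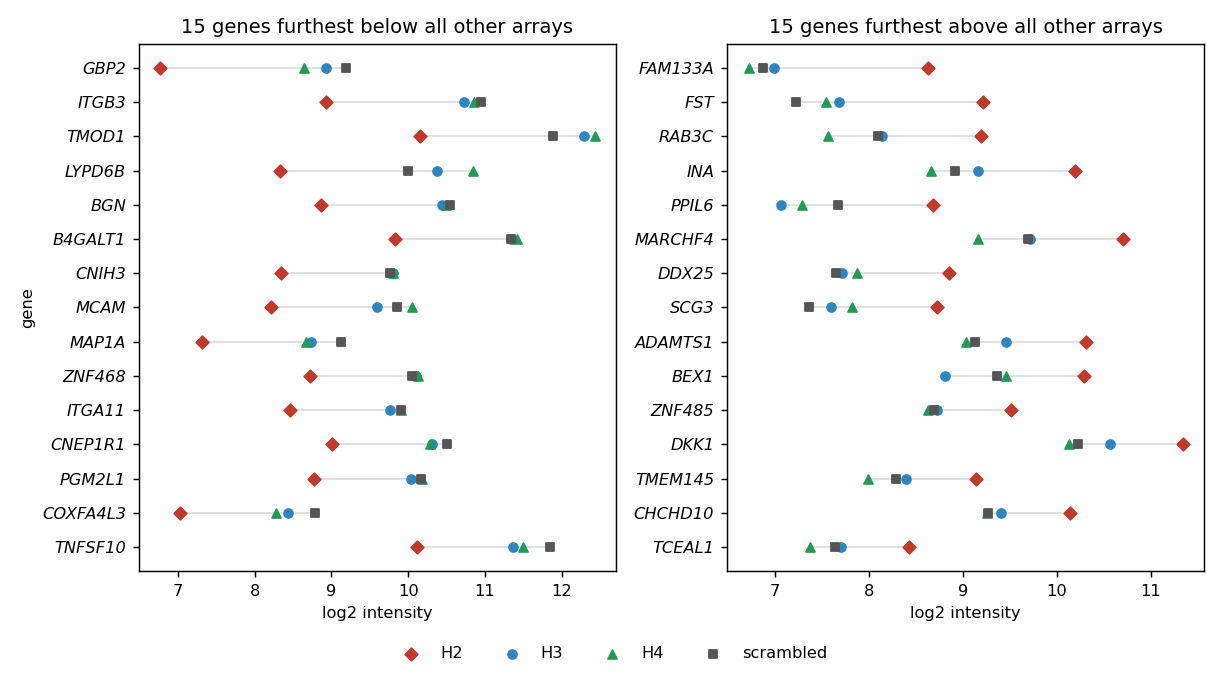
Log2 intensity (horizontal axis) on each of the 4 arrays, of the 15 genes furthest below all 3 others (left) and the 15 furthest above (right), ranked by the gap. The H2 diamond lies apart from the other 3 symbols in every row, which is how the genes were chosen; what varies is how tightly the 3 others cluster, as in CNIH3 and BGN against LYPD6B and TMOD1.

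Actin regulators and contractile genes formed the next group. TMOD1, a tropomodulin that caps the slow-growing end of actin filaments, read 1135 on the H2 array and 4985, 5497 and 3779 on the H3, H4 and scrambled arrays. PALLD, palladin, which bundles stress fibres, read 800.9 against 1805, 1918 and 1874. MYLK, the kinase that switches on smooth muscle myosin, read 701.1 against 1279, 1592 and 1507, and MYOCD, myocardin, the coactivator of smooth muscle genes, 101.6 against 221.7, 310.2 and 199.4. For MYOCD, H2 itself was under the intensity filter. ACTA2, smooth muscle actin, read 274.5 against 1280.2, 542.9 and 499.8, with H3 far above H4 and scrambled. ENAH, which lengthens actin filaments, read 1619 against 2543, 3219.6 and 2675, SVIL, supervillin, 454.4 against 824.9, 730.0 and 802.5, and the myosin gene MYO5A 1770.2 against 2938, 3117 and 3106. MAP1A, a microtubule-associated protein, read 159.6 against 424.2, 405.2 and 555.8. On the list of actin, contractile and cytoskeletal genes, 2 of 44 were lower members (4.55%) and 1 was higher (2.27%), INA. Over all genes these shares were 1.81% and 0.174%. By any amount, H2 was below all 3 others in 33 of the 44 and above all 3 in 3, beside 32.5% and 28.9% of all genes. The median of the list was -0.22 from H3, -0.18 from H4 and -0.33 from scrambled. TPM2, a tropomyosin, came closest to the threshold among the rest with 2218 against 3236, 3964 and 3883. TAGLN, transgelin, read 255.5 against 864.8, 312.2 and 651.5, where H4 was close to H2.

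A list of pericyte and mural cell genes, chosen after the values were seen, had 4 lower members of 13 (MCAM, PDGFRB, ACTA2 and CSPG4; 30.8%) and 0 higher, beside 1.81% lower and 0.174% higher over all genes. Since the list was drawn up with these members in view, the share supports nothing. Members of the group of small GTPases and vesicle traffic included SIPA1L2, a regulator of the GTPase Rap, with 775.1 against 1609.8, 1857 and 1632, and RRAS, a relative of RAS that acts on integrins, with 1417 against 2754, 2306 and 2559.6. GABARAPL1, which attaches to autophagosome membranes, read 766.3 against 1522, 1717 and 1566, and RAB27B, which docks secretory granules, 235.4 against 502.9, 423.7 and 585.5. All 19 members of this group were lower on H2, beside 91.2% of all 274 members, and their gaps ran up to -1.05.

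Some receptors of growth factors were lower members. PDGFRB, the receptor for PDGF-B, read 198.9 against 374.0, 594.8 and 408.8. TEK and TIE1, receptors of the angiopoietin system, read 367.3 against 631.0, 649.0 and 774.2 and 285.9 against 481.9, 483.9 and 909.5. The endothelial markers PECAM1, CDH5, VWF and KDR were under the filter on these arrays. MERTK, a receptor for the clearance of dying cells, read 179.4 against 269.8, 285.5 and 324.0. Ligands on the same side were FGF2, with 432.5 against 812.2, 666.2 and 1049.9, VEGFC, a growth factor of lymphatic vessels, with 841.1 against 1283, 1466 and 1548, and EGF, with 167.6 against 252.3, 261.6 and 303.5. MAPK3, the kinase ERK1 that carries such signals onward, read 433.2 against 980.0, 965.2 and 1025, and its 3 others were within 0.087 on the log2 scale. The list of receptor tyrosine kinases and ligands held 6 lower members of 50 (12%) and 0 higher, beside 1.81% and 0.174% over all genes. Its median from the mean of the others was -0.17. This was -0.065 with no intensity filter and -0.31 with the filter at the 50th percentile.

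The TGF-beta and BMP pathway had 4 lower members of 51 (7.84%) and 1 higher (1.96%), beside 1.81% and 0.174% over all genes. On the ligand side BMP4 read 417.1 against 795.9, 864.4 and 726.0. The receptors TGFBR1, the signalling type I receptor, and TGFBR3, betaglycan, read 1683 against 2576, 2773 and 2679 and 373.0 against 680.4, 624.6 and 875.2. The antagonists were divided. GREM1, gremlin, which binds BMPs, was lower at 2620.3 against 4139, 5829 and 5704. FST, follistatin, which binds activin, was higher at 595.3 against 206.0, 186.4 and 150.0, or 2.89-fold above the nearest array. TGIF1, a repressor that binds SMAD proteins, read 2412 against 3725, 3803 and 4359, and all of its 4 other probe sets had H2 lowest, 3 of them by at least 1.5-fold. H2 was below all 3 others in 29 of the 51 genes of the list and above in 3, beside 32.5% and 28.9% of all genes. The median of the list was -0.22 from the mean of the others.

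In the WNT pathway list, 2 of 40 were lower members (5%) and 1 higher (2.5%), beside 1.81% and 0.174% over all genes. WNT5A, a ligand that signals without beta-catenin, read 1376 against 2122, 3453 and 2326. CCND1, cyclin D1, which drives entry into S phase, read 1978 against 3638, 3985 and 4131. DKK1, a secreted inhibitor of WNT receptors, was higher, at 2593 against 1515, 1122 and 1199.7. DKK1 thus lay opposite to WNT5A on this array, but the rule chose both, and nothing is read from this pair about the pathway. No gene of the Notch list was a member, and NOTCH2, a receptor, came closest with a gap of -0.57. The list of the Hedgehog pathway and cerebellar transcription factors, which includes genes of the tissue from which the line arose, had 0 lower members of 46 and 1 higher, NFIA, a nuclear factor of glial differentiation, with 1411 against 865.1, 489.8 and 796.2.

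Genes of the cell cycle, DNA damage and survival were lower in 12 cases and higher in 0, where 91.2% of all 274 members were lower. PMAIP1 encodes NOXA, a p53-induced protein that promotes apoptosis, and read 1446 against 2882, 2958 and 4552. RRM2B, a p53-induced ribonucleotide reductase subunit, read 404.2 against 653.3, 786.5 and 847.6, SESN3, a sestrin, 143.4 against 245.1, 375.4 and 261.9, and GADD45G, a stress sensor, 195.9 against 305.1, 439.4 and 450.3. These 4 were the lower members among 34 genes of the p53 pathway list (11.8%, beside 1.81% of all genes), whose median was -0.11. CDKN1A, the p53-induced inhibitor of cyclin-dependent kinases, read 718.3 against 1007, 1045 and 1047 and missed the threshold. SMC1A, a subunit of cohesin, read 581.4 against 1198, 1235 and 1365, and USP1, a deubiquitinase of DNA repair, 842.5 against 1468, 1541 and 1519.8. PIM1, a survival kinase, read 1028 against 1870.2, 2192 and 2314 and DAPK1, a kinase that promotes cell death, 519.9 against 947.3, 1329 and 1485. CFLAR, an inhibitor of caspase 8, read 365.9 against 556.8, 599.9 and 560.2, but its other probe set did not have H2 outside the others. Of 59 genes of G1/S and DNA replication only CCND1 was a member, and of 53 genes of G2/M and mitosis none was.

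Enzymes and proteins of the secretory pathway included some of the largest gaps. B4GALT1, a Golgi galactosyltransferase, read 906.5 on the H2 array and 2591, 2743 and 2597 on the H3, H4 and scrambled arrays. The 3 others were within 0.083 on the log2 scale. POMK, a kinase for the sugar of dystroglycan, read 1030.4 against 2269.7, 2419 and 2383 and MPDU1, which is needed for the use of dolichol sugars, 2252 against 3979.9, 4631 and 5259. DERL1, a channel component of protein export from the endoplasmic reticulum for degradation, read 1733 against 3107, 3751 and 3749, and DNAJB9, a chaperone there, 603.5 against 950.8, 1169 and 1149. ERP29, another protein of that compartment, read 859.3 against 1501, 1470.2 and 1656. PSMD5, an assembly chaperone of the proteasome, read 2845 against 4995, 5008 and 5079.9, with the 3 others within 0.024. On the list of endoplasmic reticulum folding, 2 of 36 were lower members (5.56%, beside 1.81% of all genes). Its median was -0.031, so by the median the list as a whole lay with all genes. PPIL6, a cyclophilin-like protein, and MARCHF4, a Golgi ubiquitin ligase, were higher, at 412.4 against 134.0, 156.3 and 203.5 and 1670.3 against 840.6, 573.7 and 826.8.

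Metabolic genes were mixed in kind. PGM2L1, which makes glucose 1,6-bisphosphate, read 438.4 against 1049.9, 1157 and 1147, and BPGM, which makes 2,3-bisphosphoglycerate, 1752 against 2847, 2911 and 2914. COXFA4L3, a mitochondrial protein, read 130.3 against 345.9, 310.2 and 441.4. PAFAH1B2, a catalytic subunit that inactivates platelet-activating factor, read 2511 against 5259.5, 5455 and 5044. ADIPOR1, a receptor for adiponectin, read 3532 against 6073, 6517 and 6644, and CYP1B1, a cytochrome that oxidises steroids and pollutants, 1676 against 3034, 2902 and 2833. MGST3, a microsomal glutathione transferase, read 1873 against 3468, 3809 and 3864 and MT1F, a metallothionein, 2444 against 4541, 3668 and 3899. HMOX1, heme oxygenase, was higher with 942.1 against 577.3, 418.6 and 483.8, as was CHCHD10, a mitochondrial protein, with 1132 against 678.9, 612.0 and 618.4. On the oxidative stress list of 32 genes, MT1F and HMOX1 were the members, 1 on each side (3.125% each). Over all genes 1.81% were lower and 0.174% higher. Solute carriers were also found, among them SLC39A14, a zinc and iron transporter, with 1223 against 2446, 2295 and 2766, and SLC1A1, a glutamate transporter, with 195.9 against 555.2, 307.1 and 371.9.

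In the nucleus, lower members included PCGF5, a Polycomb subunit, with 354.2 against 720.2, 763.7 and 775.1, and TET2, which oxidises methylcytosine, with 537.7 against 890.5, 909.3 and 928.1. PHF19, which binds methylated histone H3, read 1843 against 2949, 2888 and 3008, and it neighbours PSMD5 in gene order. RARB, a retinoic acid receptor, read 160.3 against 298.3, 402.6 and 302.0 and BHLHE41, a repressor of the clock, 1149 against 2077, 2099 and 2664. ZNF468, a zinc finger gene, read 422.3 against 1095, 1120.1 and 1058. The higher members were PRDM1, a repressor also called BLIMP1, with 478.4 against 229.2, 316.1 and 246.6, ZNF485, with 731.1 against 424.4, 395.1 and 415.3, TCEAL1, with 343.8 against 208.5, 166.1 and 199.4, and NFIA. For PRDM1, H4 was the nearest array and H3 and scrambled were lower.

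Of the 12 function groups, genes used by neurons were the ones most often higher on H2. INA, the neuronal intermediate filament alpha-internexin, read 1173 against 573.0, 404.1 and 483.8. RAB3C, a GTPase of synaptic vesicles, read 583.8 against 282.3, 189.8 and 274.1, and SCG3, secretogranin III, which sorts cargo to secretory granules, 423.5 against 193.4, 226.4 and 164.8. CHRNB2, a subunit of the nicotinic acetylcholine receptor, read 636.0 against 405.5, 291.8 and 334.6, and BEX1, a small protein of neurons, 1248 against 449.0, 704.4 and 656.7. The nearest array was H3 in 3 of the 5 genes and H4 in the other two. Lower members of the same kind included GABRQ, a subunit of a GABA receptor, with 232.0 against 369.5, 394.1 and 358.1, QPCT, which cyclises the end of peptides, with 470.5 against 995.5, 772.9 and 797.6, CNIH3, an auxiliary subunit of AMPA receptors, with 324.1 against 892.9, 893.2 and 864.6, SV2A, a synaptic vesicle protein, with 411.7 against 666.0, 651.2 and 871.0, ENO2, the neuronal enolase, with 688.8 against 1379.8, 1095 and 1507, and REEP1, which shapes the endoplasmic reticulum of axons, with 251.1 against 464.4, 499.9 and 471.7. A list of secretory vesicle and neuroendocrine genes, chosen after the values were seen, held 4 higher members of 25 (16.0%) and 2 lower (8%), beside 0.174% and 1.81% over all genes, and its median was 0.052. The BEX and TCEAL list, chosen likewise, had 2 higher of 9 (22.2%), BEX1 and TCEAL1, with a median of -0.034. Both lists were drawn up with these members in view. The summed neuronal markers stood at 1339 on H2 and at 1253 to 1312 on the others, but this sum includes MAP2, GAP43, DCX and STMN2. Those were under the filter. Of the 4 that passed, SNAP25 and SYT1 had H2 among the others, and RBFOX3 and SYP had it highest.

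The gene furthest above the others was FAM133A, an X-linked gene whose function is little known, which read 396.6 on the H2 array and 127.3, 105.5 and 117.0 on the H3, H4 and scrambled arrays. The 3 others were near the intensity filter and H2 was 3.12-fold above the nearest. DDX25, an RNA helicase of the testis, read 462.1 against 210.8, 235.0 and 200.8, and TMEM145, a membrane protein, 564.2 against 336.7, 255.3 and 313.4. Some members that no group took up had large gaps on the lower side. LYPD6B, a protein of the LY6 family, read 321.3 on the H2 array and 1331, 1830.1 and 1025 on the H3, H4 and scrambled arrays, and its neighbour LYPD6, a relative, 284.9 against 538.4, 586.2 and 479.7. CNEP1R1, a regulatory subunit of a phosphatase of the nuclear envelope, read 516.5 against 1270.3, 1249.8 and 1450.2, and DIPK1A, a kinase-like membrane protein, 663.9 against 1796, 1570.5 and 1607. RRP1B, a nucleolar protein, read 890.7 against 2164, 1970.2 and 2234. TRPA1, an ion channel for irritants, read 172.3 against 567.4, 351.7 and 380.6, and KCNJ15, a potassium channel, 3005 against 4944, 5878 and 4968. SAMD4A, a translational repressor, read 362.4 against 916.2, 795.9 and 968.3.

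The lists whose medians lay highest on H2 held no higher member. For 37 genes of ribosome biogenesis and MYC response, H2 was above all 3 others in 30 and below all 3 in 4. Over all genes these shares were 28.9% and 32.5%. The median of the list was 0.17 from H3, 0.21 from H4 and 0.22 from scrambled. DKC1, which modifies ribosomal RNA, had the widest gap with 3556 against 1738, 2581 and 2739, and NCL, nucleolin, read 6096 against 4897, 5336 and 4799.8. Cytosolic ribosomal proteins were above all 3 others in 38 of 58, beside 28.9% of all genes, with a median of 0.078 from the mean of the others. Heat shock and proteostasis genes had a median of 0.14, with 10 of 18 above all 3, beside 28.9% of all genes. They held 1 lower member (5.56%, beside 1.81% of all genes), BAG2, a cochaperone, with 1636 against 2848, 2639 and 2932. For sterol and fatty acid synthesis the median was 0.15 from H3 and 0.34 from H4 and -0.0029 from scrambled, so H2 was level with the scrambled array there. SCD, a desaturase of fatty acids, came nearest to the threshold with 3267 against 2122, 1901 and 2253. Oxidative phosphorylation had 0 members of 59 and a median of 0.031 from the mean of the others, with -0.024 from H4 alone. The remaining lists held 0 to 2 lower members each and medians between -0.18 and 0.056. In the list of ZFX relatives and genes recalled as its targets, 0 of 8 were members, and DIS3L, a ribonuclease of the cytoplasmic exosome, read 225.4 against 295.0, 228.5 and 581.0 with H4 as low as H2.

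Gene class, gene order and second probe sets were not used by the rule. Of the members above the filter, 271 were protein coding, 2 were long noncoding RNAs and 1 was a transcribed pseudogene. The classes were not counted over all genes tested, so this is not read as a trait of the members. In the gene order of the genes tested, 9 neighbouring pairs, holding 17 genes, were members on the same side, and 0 pairs lay on opposite sides. They were the guanylate-binding genes GBP2 and GBP4, IFIT2 with IFIT3 and IFIT3 with IFIT1, CXCL10 with CXCL11, LYPD6B with LYPD6, HS6ST2 with GPC4, PSMD5 with PHF19, PARVG with SHISAL1, and ATP2B4 with LINC00260. With 91.2% of the members lower, pairs on opposite sides had little room to occur. The number of pairs that gene order alone would give was not worked out, so nothing is read from these pairs. For 8 genes there were 11 further probe sets with the same single symbol. All 11 had H2 on the member's side of the mean of the others, 9 had it outside all 3 and 6 had it at least 1.5-fold outside. TIMP3, for example, read 212.5 on H2 and 471.4, 309.9 and 424.4 on the others in its second probe set, and TRERF1, a transcriptional regulator, read 318.1 against 631.5, 519.6 and 538.3. These probe sets were hybridised with the same 4 samples and so do not repeat the experiment, and the 2 of VAMP7 hold the same values. Among the 6 were this VAMP7 copy and TGIF1 probe sets with readings close to one another, such as 1779 and 1790 on H2. Another TGIF1 probe set had a gap of -0.26 on the log2 scale. Such shares were not worked out for genes that are no members.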

How the data were processed

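In the deposited table each array has 1 intensity per probe set, made by the authors with RMA (background correction, normalization across arrays and summarisation of probes), per the submitters' processing notes; its version is not given in the sources used here. The design assumed log2 values, but the deposited intensities are linear (array medians 226.0 to 232.3), so log2 was taken. RMA gives all arrays 1 distribution of probe values before these are summarised, and would hide a shift of total RNA. Of 33297 probe sets, 19460 have exactly 1 symbol in the platform annotation, 1754 several and 12083 none listed. The probe set with the highest mean stands for each gene, and 18389 of 18417 genes matched RefSeq by gene number. The fold differences are ratios of these intensities.

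The limma fit (limma 3.58.1, R 4.3.3; lmFit, then eBayes with an intensity trend) was tested on simulated data. Its p-values measure the spread between arrays of different hairpins, none of them repeated, and take the lone H2 array to be as variable as the rest. The number of arrays limits the precision. Tables and figures used pandas 2.3.3 and matplotlib 3.10.9 in Python 3.11.15. Promoters were taken at the first start RefSeq lists. The hairpin sequences were not used here, and 1 further gene list is not reported here.

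The members and the 39 gene lists were chosen with earlier results of these data known, and 3 further lists and the function groups after the values were seen. The genes named are ZFX, the 15 with the widest gap on each side, up to 6 members and 2 other genes of each list described, and the genes at the threshold. Other members, and non-members set beside them, were named after their values were seen. Alternatives were other normalizations, filters, probe set rules, fold thresholds and leaving out each other array.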

Additional observations from a re-analysis of the deposited data

How the results depend on the processing

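With each array centred on its median, quantile normalization, cyclic loess, no intensity filter or the mean of a gene's probe sets, 222 to 252 genes were lower and 24 to 34 higher, and 244 to 274 of the 274 members stayed outside the 3 others. A filter at the 50th percentile left 218 lower and 12 higher. A threshold of 2-fold left 49 lower and 5 higher, and one of 1.3-fold, chosen after seeing the data, gave 648 and 113. Without 1 of the 3 other arrays in turn, which leaves fewer arrays to lie outside of, the counts were 272 to 375 lower and 38 to 72 higher, and limma called 0 to 12 genes. Without an intensity trend limma called 0 genes (1831 at an unadjusted p under 0.05); under the remaining settings it called 25 to 31. Of the 97 genes named by the rule on lists and gaps, LOXL3, VEGFC, MERTK, CFLAR and MT1F came inside the threshold with quantile normalization, LOXL3 and CFLAR with cyclic loess, and BMP1, CFLAR and TET2 with the mean of probe sets; none changed sides. The medians of the 42 lists moved by more than 1 SD of the list's medians against the 3 single arrays in 14 lists with the filter at the 50th percentile, in 5 with no filter, in 5 with quantile normalization, in 2 with cyclic loess and in 3 to 7 without 1 other array. The cause of these changes was not tested. No paired analysis was possible because each group has 1 array.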

Other observations

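Probe sets left out of the gene counts were split more evenly than the named genes, of which 250 were lower (1.81%) and 24 higher (0.174%). Of 1319 probe sets with several symbols at or above the filter, 8 were at least 1.5-fold lower on H2 than on all 3 other arrays and 5 were higher (0.986% in all). Of 5808 probe sets with no listed gene, 46 were lower and 35 higher (1.39% in all).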
